A study of Mus musculus with 9 samples.

Results

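The 9 genes described here sense nucleic acid or carry that signal towards the interferon genes. They were taken by symbol from the 24421 genes of the count table: the endosomal Toll-like receptor genes *Tlr3*, *Tlr7* and *Tlr9*, their chaperone gene *Unc93b1*, *Mb21d1* (cGAS), *Tmem173* (STING), *Mavs*, *Tbk1* and *Trex1*. All 9 were found, and all 9 passed the filter on low counts. RNA was sequenced from microglia, the resident macrophages of the brain, sorted as live CX3CR1+, CD45+ and CD11b+ cells, in 9 libraries with 3 each labelled WT, FD and MLIV. WT are wild-type controls, which the study calls littermates for MLIV but only age-matched for FD. FD are Fabry disease mice (*Gla* y/-, the gene of the lysosomal enzyme alpha-galactosidase A). MLIV are mucolipidosis type IV mice (*Mcoln1*-/-, the gene of a lysosomal cation channel). The strain is labelled C57CL6J for every sample and given as C57BL6 in the study's methods. The *Mcoln1* mutation was kept as heterozygotes that were intercrossed and the *Gla* mutation as homozygotes, and the sources name no Cre driver or cell-type promoter for either. The methods give 4 animals per condition at 2 months of age, the series title gives 4 months, and nothing says which animals went into which library, so each p-value speaks of the variation among these libraries alone, and that variation may be technical.

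Cells read foreign or misplaced nucleic acid in separate compartments. In the endosome, TLR3 binds double-stranded RNA, TLR7 single-stranded RNA and TLR9 unmethylated CpG DNA, and all of them depend on UNC93B1 to leave the endoplasmic reticulum. In the cytosol, cGAS binds DNA and makes a cyclic dinucleotide that activates STING, while MAVS relays the RNA sensors RIG-I and MDA5 from the mitochondrial surface. STING and MAVS both use the kinase TBK1 to activate IRF3, and the exonuclease TREX1 degrades cytosolic DNA before cGAS can bind it.

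Totals were 22772260 to 37801159 counts per library, and each of the 9 genes had between 665 counts (*Trex1*, WT replicate 1) and 51473 counts (*Unc93b1*, MLIV replicate 1) in every library. *Mcoln1* had 1082 and 1517 counts in WT replicates 1 and 2, 892 to 1442 in FD and 0, 0 and 18 in MLIV, and 2 in the library labelled WT replicate 3, which goes against its label. *Gla* had 4.56 to 4.82 CPM in the FD libraries and from 4.56 to 10.8 CPM where the label was WT, so it does not separate them. No library was moved, and the comparisons were made with the 9 libraries as labelled and with the 8 that remain without WT replicate 3. The *Xist* RNA of the inactive X (1358 to 1521 CPM) and the Y-linked *Ddx3y* (0 to 0.0622 CPM) in FD go against the male genotype *Gla* y/-. WT-labelled libraries had 0.523 to 4.10 and 89.2 to 118 CPM of these genes. In FD against WT the genotype, sex and breeding line therefore cannot be told apart. MLIV replicate 1 had 1448 and 0 CPM, MLIV replicate 2 had both (1026 and 26.6) and MLIV replicate 3 had 4.00 and 76.7. MLIV against WT and MLIV against FD are thus also unbalanced in sex, and its part in them was not tested. FD replicate 3 also stood apart, with the lowest correlations with the other libraries (0.878 to 0.905). It had counts for 12032 genes, where the other libraries had counts for 15526 to 22932. The 10 microglia markers, *Tmem119* and *P2ry12* among them, were detected in every library and summed to 21935 to 27716 CPM. CPM are counts per 1e6 counts of a library, scaled by the TMM factors of edgeR, and RPKM are CPM per kilobase of exon. Fold changes are on the log2 scale ± SE. A gene was called where edgeR's quasi-likelihood test over all genes gave an adjusted p (Benjamini-Hochberg) below 0.05. Positions are mm10.

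*Trex1* was the member that stood highest in MLIV, and it was the only one of the 9 called in any comparison. It lies on chromosome 9 from 109057932 to 109059723 on the minus strand, in 3 exons that sum to 1137 bases. It was counted at 25.5, 23.9 and 40.2 CPM in WT-labelled libraries, at 34.7, 31.1 and 28.1 in FD and at 47.1, 44.1 and 50.5 in MLIV. All MLIV libraries lay above all the others, and the library labelled WT replicate 3 lay closer to them than to WT replicates 1 and 2.

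With 9 libraries as labelled, *Trex1* was 1.58-fold higher in MLIV than in WT (0.66 ± 0.21, edgeR unadjusted p 0.008, adjusted p 0.999) and was not called. Without WT replicate 3 it rose in MLIV, from 24.7 ± 1.07 CPM (SD, n = 2) to 47.2 ± 3.21 (SD, n = 3), by 0.92 ± 0.20 or 1.90-fold (edgeR adjusted p 0.0282). Against FD the difference was 0.59 ± 0.21 with 9 libraries (edgeR adjusted p 0.139) and 0.59 ± 0.17 with 8 (edgeR adjusted p 0.0655). FD differed from WT by 0.06 ± 0.21 with 9 libraries and by 0.33 ± 0.20 with 8 (edgeR adjusted p 0.949 and 0.983).

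The call on *Trex1* depended on single libraries and on the scaling. In the 8-library comparison of MLIV with WT it was lost without WT replicate 1 (edgeR adjusted p 0.319), WT replicate 2 (0.219), MLIV replicate 1 (0.109), MLIV replicate 2 (0.0946) or MLIV replicate 3 (0.109), while the log2 fold change stayed between 0.89 and 0.98. It was also lost when libraries were scaled by their totals (0.72, edgeR adjusted p 0.107). Removing WT replicate 1 or 2 leaves 1 WT library, which is then assumed to vary like the other groups. In the 8-library comparison of MLIV with FD, *Trex1* passed without FD replicate 3 (0.54, edgeR adjusted p 0.0189), with at least 10 counts in every library (0.56, edgeR adjusted p 0.0481) and with DESeq2 (0.58, adjusted p 0.0174).

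**Figure D1:**
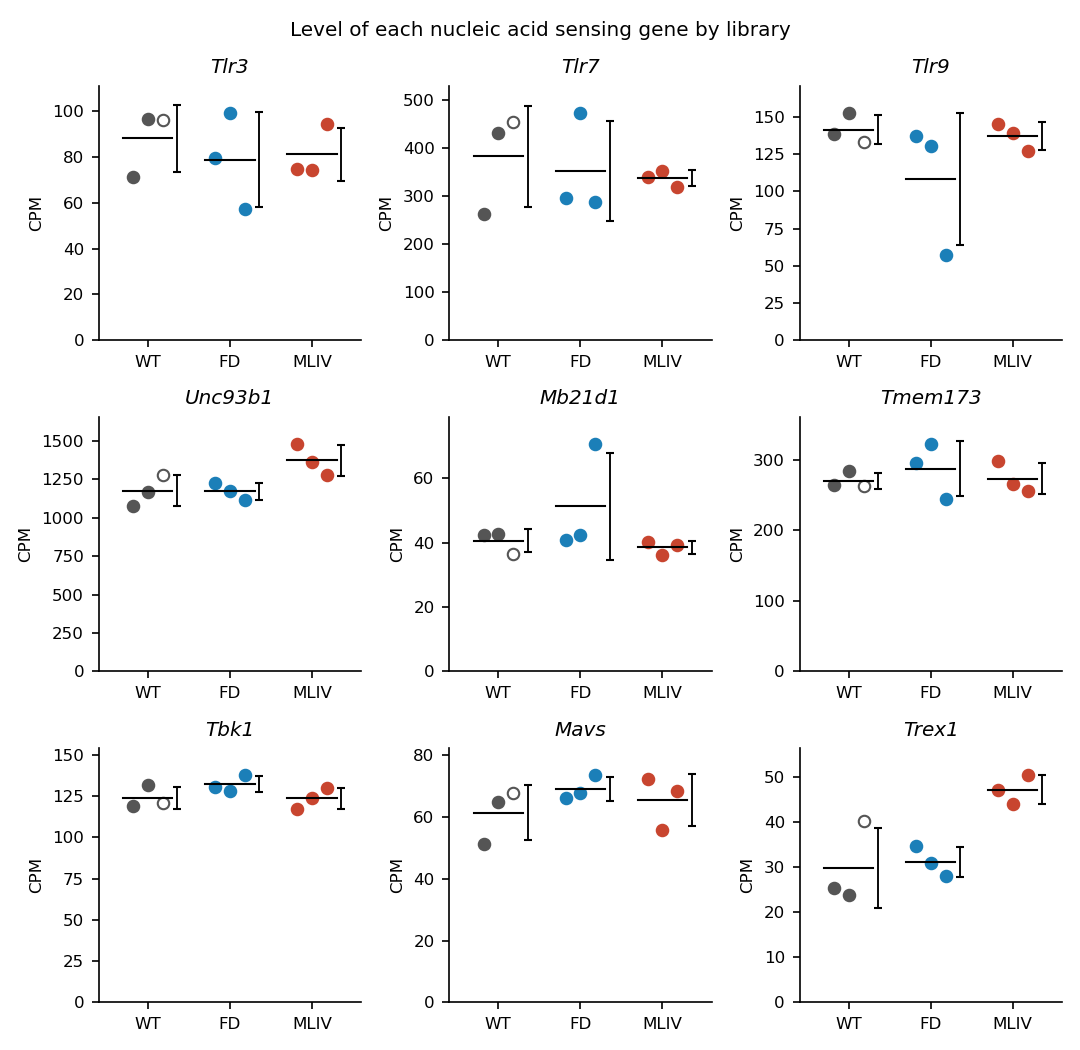
CPM of each of the 9 genes in each library, with a panel per gene and a vertical axis from 0. Points are libraries (the open circle is the library labelled WT replicate 3), horizontal lines are group means and bars to their right are ± 1 SD over 3 libraries. The 3 MLIV points of *Trex1* (44.1 to 50.5 CPM) lie above all others, and FD replicate 3 lies apart for *Tlr9* and *Mb21d1*.

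Because the counting took reads on either strand, the genes beside *Trex1* were measured as well. *Atrip*, a gene of the DNA damage checkpoint, ends 23 bases from the start of *Trex1* on the same strand (109059747 to 109074124), and RefSeq lists a read-through transcript of both genes (109057933 to 109074097). *Shisa5* lies 139 bases from the other end on the opposite strand (109038567 to 109057792). No exon of another gene overlapped the exons of any of the 9 members in the annotation used.

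*Atrip* had 17.3 to 18.3 CPM in WT-labelled libraries, 18.1 to 18.7 in FD and 14.6 to 17.7 in the MLIV libraries. Its level in MLIV was not above that in WT without WT replicate 3 (-0.14 ± 0.25, edgeR adjusted p 0.943), and over 9 libraries its r with *Trex1* was -0.573. Per base of exon, *Trex1* had 3.03 to 5.24 times the reads of *Atrip* in WT-labelled libraries, 3.50 to 4.20 times in FD and 5.62 to 7.28 times in MLIV. *Shisa5* stood at 65.4, 81.8 and 125 CPM in WT-labelled libraries, 73.6, 71.6 and 54.0 in FD and 125, 109 and 105 in MLIV. It was higher in the same libraries as *Trex1* (MLIV against WT with 8 libraries, 0.60 ± 0.18, edgeR adjusted p 0.154) and was called against FD with 8 libraries (0.76 ± 0.16, edgeR adjusted p 0.0136) but not with 9 (0.76 ± 0.22, edgeR adjusted p 0.084). Whether reads of *Shisa5* or of a read-through transcript entered the count of *Trex1* was not tested.

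**Figure D2:**
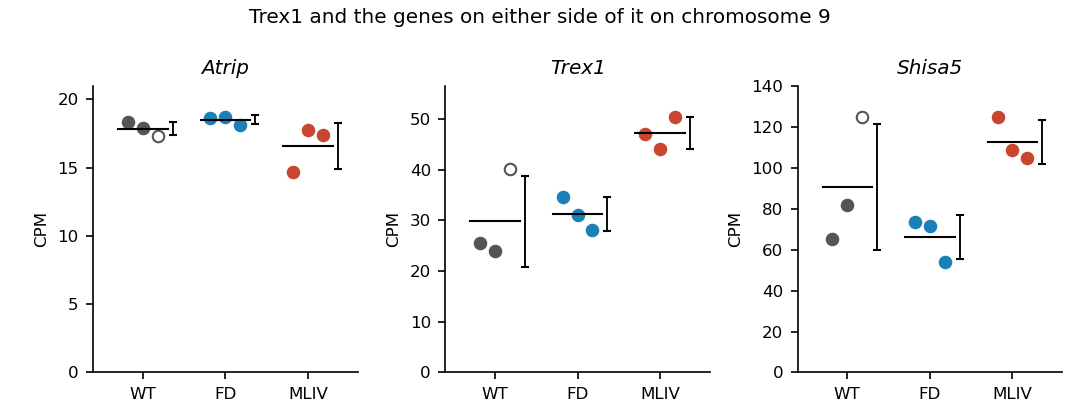
CPM of *Trex1* and of its neighbours on chromosome 9, *Atrip* and *Shisa5*, in each library (points), with group means (lines) and ± 1 SD over 3 libraries (bars). The open circle is the library labelled WT replicate 3. *Atrip* stays between 14.6 and 18.7 CPM, and *Shisa5* has at least 105 CPM in each MLIV library and at most 73.6 in FD.

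The genes whose levels followed *Trex1* most closely over the 9 libraries were *Sowahc* (Pearson r of log2 CPM 0.976), *Isg15* (0.964), which encodes a ubiquitin-like modifier induced by interferon, and *Fcgr1* (0.959), which encodes a high-affinity Fc receptor. The points share libraries and scaling, and the rule took the highest of 15339 genes, so these values are a description. *Isg15* had 2.07, 2.85 and 12.1 CPM in WT-labelled libraries, 5.94, 3.08 and 2.55 in FD and 17.2, 13.3 and 15.7 in MLIV. Among the members, *Unc93b1* was the one nearest to *Trex1* (r 0.859).

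*Unc93b1* (chromosome 19, 3935186 to 3949340) was the most abundant member and stood highest in MLIV, by a smaller margin than *Trex1*. Its level was 1079, 1165 and 1279 CPM in WT-labelled libraries, 1229, 1171 and 1116 in FD and 1478, 1363 and 1280 in MLIV. The lowest MLIV library only just cleared WT replicate 3. MLIV was 0.22 ± 0.13 above WT with 9 libraries (edgeR unadjusted p 0.123, adjusted p 0.999), 0.28 ± 0.14 above WT with 8 (edgeR adjusted p 0.558) and 0.23 ± 0.13 above FD with 9 (edgeR adjusted p 0.389). FD differed from WT by -0.01 ± 0.13 (edgeR adjusted p 0.995), and none of these passed.

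*Tlr7* (X chromosome, 167304926 to 167330571) was the most abundant of the endosomal receptors per length, and its WT-labelled and FD libraries were widely spread. It had 263, 431 and 454 CPM in WT-labelled libraries, 296, 472 and 288 in FD and 341, 353 and 319 in MLIV. The MLIV libraries lay within the range of both other groups. The fold changes were -0.18 ± 0.23 for MLIV against WT and -0.12 ± 0.23 for FD against WT with 9 libraries (edgeR adjusted p 0.999 and 0.904). *Tlr7* is X-linked, and the libraries differed in *Xist* as given above. The part of sex in the level of *Tlr7* was not tested.

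*Tlr9* (chromosome 9, 106222598 to 106226876) was even across 8 libraries and low in 1. It had 138, 152 and 133 CPM in WT-labelled libraries, 137, 131 and 57.1 in FD and 145, 139 and 127 in MLIV. FD replicate 3 was lower than all the others, and the groups overlapped. FD differed from WT by -0.39 ± 0.26 with all 9 libraries (edgeR adjusted p 0.735) and by -0.08 without FD replicate 3, and MLIV differed from WT by -0.05 ± 0.26 (edgeR adjusted p 0.999).

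*Tlr3* (chromosome 8, 45395665 to 45410539) was the least abundant of the receptors. It had 71.2, 96.5 and 96.1 CPM in WT-labelled libraries, 79.6, 98.9 and 57.4 in FD and 74.8, 74.0 and 94.2 in MLIV. The groups overlapped throughout, FD replicate 3 was again the lowest, and the differences from WT were -0.12 ± 0.20 in MLIV and -0.16 ± 0.20 in FD (edgeR adjusted p 0.999 and 0.851).

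The ratio of the chaperone gene to its client *Tlr9* set FD replicate 3 apart. Per base of exon, *Unc93b1* had 11.7 to 15.6 times the reads of *Tlr9* in the 8 libraries other than FD replicate 3, where it had 29.9 times. It had 4.36 to 7.62 times the reads of *Tlr7* over all 9, with 6.79 to 7.62 in MLIV and 4.75 to 7.21 in WT-labelled libraries.

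Of the cytosolic DNA pathway, *Mb21d1* (chromosome 9, 78430518 to 78443237) was the member with the lowest level per length. It had 42.4, 42.8 and 36.4 CPM in WT-labelled libraries, 40.8, 42.4 and 70.5 in FD and 40.2, 36.2 and 39.2 in MLIV. FD replicate 3 was high, and the other 8 libraries lay within 36.2 to 42.8. The differences from WT with 9 libraries were -0.08 ± 0.21 in MLIV and 0.33 ± 0.21 in FD (edgeR adjusted p 0.999 and 0.723), the latter 0.04 without FD replicate 3. MLIV differed from FD by -0.41 ± 0.21 with 9 libraries (edgeR adjusted p 0.307) and by -0.11 without FD replicate 3. *Mb21d1* and *Tlr9* ran opposite over 9 libraries (r -0.916), and the value was 0.31 without FD replicate 3.

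*Tmem173* (chromosome 18, 35733678 to 35740554), the adaptor that cGAS activates, had overlapping levels in the groups. It had 264, 283 and 263 CPM in WT-labelled libraries, 296, 322 and 244 in FD and 297, 266 and 255 in MLIV. FD replicate 3 was the lowest, and the differences from WT were 0.01 ± 0.14 in MLIV and 0.09 ± 0.14 in FD with 9 libraries (edgeR adjusted p 0.999 and 0.889). The first of these turned to -0.14 when libraries were scaled by their totals.

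The degrading enzyme and the sensor did not keep 1 ratio. Per base of exon, *Trex1* had 2.18, 2.03 and 4.02 times the reads of *Mb21d1* in WT-labelled libraries, 3.09, 2.67 and 1.45 times in FD and 4.26, 4.43 and 4.68 times in MLIV. The MLIV libraries were above the other 6, and the library labelled WT replicate 3 came next.

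The shared kinase *Tbk1* (chromosome 10, 121546456 to 121586794) was the most even member, with a coefficient of variation of 5.32% over 9 libraries. Its level was 119, 132 and 121 CPM in WT-labelled libraries, 131, 128 and 138 in FD and 117, 124 and 130 in MLIV. MLIV differed from WT by -0.01 ± 0.12 and FD from WT by 0.09 ± 0.12 with 9 libraries (edgeR adjusted p 0.999 and 0.863). *Mavs* (chromosome 2, 131234063 to 131248024) had 51.2, 64.9 and 67.7 CPM in WT-labelled libraries, 66.1, 67.6 and 73.4 in FD and 72.1, 55.8 and 68.2 in MLIV. WT replicate 1 was the lowest, the groups overlapped, and the differences from WT were 0.09 ± 0.16 in MLIV and 0.17 ± 0.16 in FD (edgeR adjusted p 0.999 and 0.809).

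**Figure D3:**
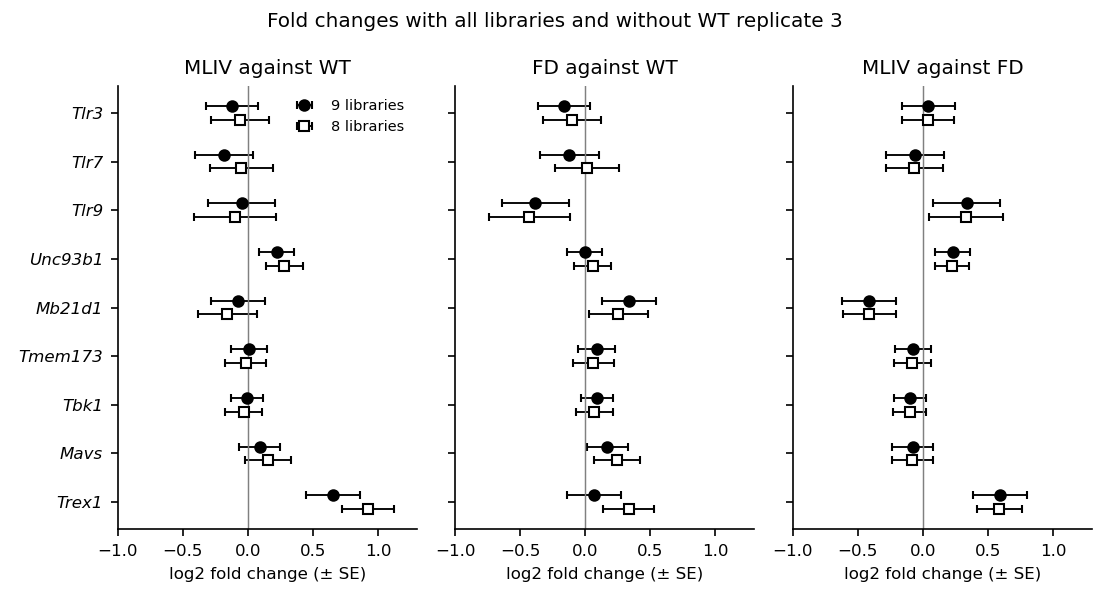
Log2 fold changes (horizontal axis) of the 9 genes in the 3 comparisons, with all 9 libraries (filled circles) and with the 8 without WT replicate 3 (open squares). Bars are ± SE. *Trex1* lies furthest right in MLIV against WT, at 0.66 and 0.92, and the other 8 genes lie between -0.43 and 0.34 in all 3 comparisons.

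Over the 9 members, the counts of calls were small in each comparison. For MLIV against WT with 9 libraries, 0 of 9 were called (1 at an unadjusted p below 0.05, *Trex1*), beside 0% of the 15340 genes tested in edgeR, of which 4.64% had an unadjusted p below 0.05. DESeq2 also called 0 of 9. With 8 libraries 1 of 9 was called, beside 1.7% of 17440 genes, and 1 had an unadjusted p below 0.05, beside 10.1%. For FD against WT 0 of 9 were called by edgeR and DESeq2 in either fit, beside 0.339% of all genes with 9 libraries and 0.31% with 8. An unadjusted p below 0.05 was reached by 0 of 9 in edgeR, beside 8.01% and 4.2% of all genes. For MLIV against FD 0 of 9 were called in edgeR in either fit (1 at an unadjusted p below 0.05, beside 19.4% and 17.6% of all genes), beside 1.26% and 5.63% called, and DESeq2 called 0 with 9 libraries and 1 with 8.

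The groups did not overlap in CPM for 2 of the 9 members in MLIV against WT (*Unc93b1* and *Trex1*), beside 12.5% of all genes, and for 0 in FD against WT, beside 12.6%. In MLIV against FD it was 3 of 9 (*Unc93b1*, *Mb21d1* and *Trex1*), beside 27.8%. Without WT replicate 3 it was 3 of 9 in each comparison, beside 32.8% of all genes (MLIV with WT), 18% (FD with WT) and 24.6% (MLIV with FD). The median log2 fold change of the members was -0.01 in MLIV against WT, 0.06 in FD against WT and -0.06 in MLIV against FD with 9 libraries, where the medians of all genes were -0.03, -0.08 and 0.03.

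Compared per length, the members spanned a wide range of levels in every group. Mean RPKM over the 9 libraries were 547 ± 55.5 (SD, n = 9) for *Unc93b1*, 120 ± 10.7 for *Tmem173*, 89.8 ± 19.3 for *Tlr7*, 41.8 ± 2.22 for *Tbk1* and 37.1 ± 8.04 for *Tlr9*. They were 31.8 ± 8.58 for *Trex1*, 20.5 ± 2.28 for *Mavs*, 19.1 ± 3.35 for *Tlr3* and 10.5 ± 2.53 for *Mb21d1*. *Unc93b1* lay clear of *Tmem173*, and *Tlr7* lay clear of *Tbk1*. The ranges of each other pair of neighbours overlapped. Within libraries, *Tmem173* was above *Tlr7* and *Trex1* above *Mavs* in 9 of 9, and *Tlr3* was above *Mb21d1* in 8 of 9, all but FD replicate 3. The order was less regular for *Tlr9* above *Trex1* (7 of 9 libraries), *Tbk1* above *Tlr9* (6 of 9) and *Mavs* above *Tlr3* (4 of 9), whose places do not differ beyond the spread. *Trex1* moved within it: in MLIV its 38.8 to 44.4 RPKM lay beside the 38.7 to 43.0 of *Tbk1*, and in WT replicates 1 and 2 its 22.4 and 21.1 lay beside the 16.1 and 20.4 of *Mavs*.

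**Figure D4:**
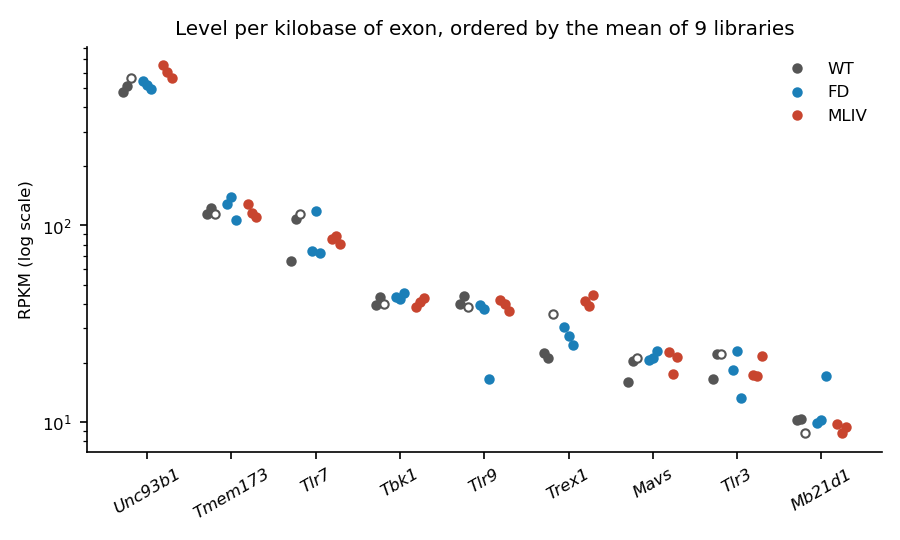
RPKM on a log axis for the 9 genes, ordered by their mean over 9 libraries, with a point per library (open circle, the library labelled WT replicate 3). The order runs from *Unc93b1* (476 to 652 RPKM) to *Mb21d1* (8.75 to 17.1), and the MLIV points of *Trex1* (38.8 to 44.4) stand above its other points, as those of *Unc93b1* do by a narrow margin.

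The promoter windows were read because *Trex1* followed *Isg15*, whose promoter is known to bind interferon-activated factors through the interferon-stimulated response element (ISRE). RefSeq windows of 300 bases (GRCm38.p6, from 250 before to 50 after a start) were found for 6 of the 9 members in 7 entries, namely *Tlr3*, *Tlr9*, *Mb21d1*, *Tbk1*, *Mavs* and 2 for *Trex1*. Both strands were searched for the ISRE core, which is GAAA, any 2 bases and GAAA and stands in 3.44% of 32851 promoters. They were also searched for the IRF half-site AANNGAAA that each core contains, which is in 23.9%. The core was in 0 of the 7 entries and the half-site in 1, that of *Tlr3*. The first *Trex1* window (chr9:109059674-109059973) reached into *Atrip* and held neither, and the second starts inside *Trex1*. Shown are the second *Trex1* window, that of *Tlr3* and, as examples that hold the core, those of *Ifih1* and *Isg15*. They run 5′ to 3′ on the strand of the gene, with any ISRE core or IRF half-site in capitals.
Trex1, second entry, chr9:109059202-109059501, minus strand: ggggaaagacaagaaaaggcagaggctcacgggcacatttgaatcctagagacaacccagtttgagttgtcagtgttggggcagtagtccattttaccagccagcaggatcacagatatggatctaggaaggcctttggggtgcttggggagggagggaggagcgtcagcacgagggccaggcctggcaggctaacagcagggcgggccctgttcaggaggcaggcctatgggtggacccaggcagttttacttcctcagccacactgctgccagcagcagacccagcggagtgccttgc
Tlr3, chr8:45410331-45410630, minus strand: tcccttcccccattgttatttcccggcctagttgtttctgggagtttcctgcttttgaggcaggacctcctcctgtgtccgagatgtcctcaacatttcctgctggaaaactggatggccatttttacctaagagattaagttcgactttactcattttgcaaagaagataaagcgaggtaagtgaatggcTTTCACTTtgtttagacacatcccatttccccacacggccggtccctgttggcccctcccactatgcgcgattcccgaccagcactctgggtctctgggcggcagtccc
Ifih1, chr2:62646206-62646505, minus strand: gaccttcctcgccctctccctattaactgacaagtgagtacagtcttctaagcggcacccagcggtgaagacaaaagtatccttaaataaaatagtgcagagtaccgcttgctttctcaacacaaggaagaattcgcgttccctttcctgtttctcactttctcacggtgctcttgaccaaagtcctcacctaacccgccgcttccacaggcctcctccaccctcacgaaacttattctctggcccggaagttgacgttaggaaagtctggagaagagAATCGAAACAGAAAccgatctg
Isg15, chr4:156200769-156201068, minus strand: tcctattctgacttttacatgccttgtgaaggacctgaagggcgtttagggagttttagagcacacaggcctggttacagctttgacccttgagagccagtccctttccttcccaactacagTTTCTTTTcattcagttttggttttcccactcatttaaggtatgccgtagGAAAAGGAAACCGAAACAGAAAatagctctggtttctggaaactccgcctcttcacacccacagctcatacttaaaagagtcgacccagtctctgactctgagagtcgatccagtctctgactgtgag

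The IRF half-site of *Tlr3* begins 59 bases before the start, and *Tlr3* did not differ between groups beyond its spread. The ISRE core of *Ifih1* begins 33 bases after its start, and *Isg15* holds 3 cores, at 78, 72 and 66 bases before its start. Of the 18 named genes of the other lists, 15 had a promoter entry and 7 of those held the core: *Ifih1*, *Eif2ak2*, *Ddx58*, *Pld3*, *Ifitm3*, *Ifit1* and *Ifit3b*. These 18 were picked by their p in these same libraries, some from a list of interferon-stimulated genes. That choice bears on how many hold the core, so the count is no test and no contrast with the members. Other motifs searched on both strands were the CACGTG E-box, found in *Tbk1* (in 7.15% of all promoters), the AP-1 motif TGANTCA, once in *Tlr9* (in 7.81%), and GAGGAA, a PU.1 core, in *Tlr9* and in the second *Trex1* window (in 28.3%). The STAT motif TTCNNNGAA, in 8.3% of all promoters, was in 0 of the 7 entries. A match in a window is a description of its letters.

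Around the 9 members, a few other sensors were called in MLIV. Without WT replicate 3, 3 of 22 other sensors rose in MLIV against WT and 0 fell, beside 1.7% of all genes called in either direction. They were *Ifih1* (MDA5, 1.14 ± 0.19, edgeR adjusted p 0.004), *Dhx58* (LGP2, 0.97 ± 0.22, edgeR adjusted p 0.0353) and *Eif2ak2* (the RNA-activated kinase PKR, 0.95 ± 0.19, edgeR adjusted p 0.0184). *Ddx58* (RIG-I) had 0.76 ± 0.19 and was not called (edgeR adjusted p 0.0657). *Ifih1* was counted at 36.4, 42.7 and 86.3 CPM in WT-labelled libraries, 43.0, 40.8 and 49.8 in FD and 74.4, 99.8 and 88.7 in MLIV. WT replicate 3 lay among the MLIV libraries. With all 9 libraries 0 of 22 were called (4 at an edgeR unadjusted p below 0.05, beside 4.64% of all genes). The median of the list was 0.47 with 8 libraries, where all genes had -0.13. Their adaptor *Mavs*, described above, had 0.16 ± 0.18 in the same fit (edgeR adjusted p 0.866). The count of sensors called fell to 1 without MLIV replicate 2 or MLIV replicate 3, and it was 1 with a log2 fold threshold of 1. It rose to 5 without FD replicate 3, where the calls over all genes also rose, from 296 to 1515. *Ifih1* lost its call without WT replicate 1 (edgeR adjusted p 0.153) and *Eif2ak2* without WT replicate 1, MLIV replicate 2 or MLIV replicate 3 (up to 0.436). *Dhx58* lost it without either WT library or any 1 MLIV library, with the replicate block and with scaling by library totals (up to 0.643).

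Genes that fold, move or process the endosomal receptors and their ligands all had positive fold changes in MLIV against WT, while the 3 receptors stood between -0.18 and -0.05 with 9 libraries. With 8 libraries 4 of 16 rose against WT, beside 1.7% of all genes called in either direction. They were the lysosomal proteases *Ctsb* (1.24 ± 0.20, edgeR adjusted p 0.00361), *Ctsl* (1.09 ± 0.17) and *Ctss* (1.04 ± 0.18), and *Pld3* (1.29 ± 0.17, edgeR adjusted p 0.000868), an endolysosomal exonuclease that degrades single-stranded DNA. *Pld3* stood at 96.9, 133 and 267 CPM in WT-labelled libraries, 127, 117 and 118 in FD and 318, 284 and 248 in MLIV. It was above all other libraries in MLIV except WT replicate 3. The 16 genes were positive in both fits, with medians of 0.28 and 0.50, where all genes had -0.03 and -0.13. Over all genes, the calls with 8 libraries went from 296 to 1515 without FD replicate 3. With 9 libraries 0 of the 16 were called (3 at an edgeR unadjusted p below 0.05, beside 4.64% of all genes). The 8-library count fell to 1 without WT replicate 1 and rose to 10 without FD replicate 3.

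*Rnaset2b*, an RNase T2 gene whose product makes RNA fragments for TLR receptors, was the gene of these lists that fell in FD. It had 61.4, 78.5 and 116 CPM in WT-labelled libraries, 8.27, 5.90 and 13.9 in FD and 105, 106 and 104 in MLIV. FD lay far under all others (-3.19 ± 0.31 against WT with 9 libraries, edgeR adjusted p 0.000618, and -2.91 ± 0.28 with 8). Its gene model runs from 6978860 to 8147832 on chromosome 17, and its near-identical copy *Rnaset2a* had 0 counts in every library, so the assignment of these reads is uncertain. *Tlr7*, whose product can bind such RNA, had overlapping levels in FD and WT (above).

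Of the adaptors and kinases that surround *Tbk1* and *Mavs*, 0 of 31 were called in MLIV against WT with 9 libraries and 0 of 32 with 8. In edgeR 1 and 3 had an unadjusted p below 0.05, beside 4.64% and 10.1% of all genes. The list medians were -0.03 in both. The count with 8 libraries was 3 without FD replicate 3, where all genes had 1515 calls instead of 296. Among 13 transcription factors 0 were called in either fit (0 and 2 at an unadjusted p below 0.05), and the count with 8 libraries was 1 without FD replicate 1 or FD replicate 3. *Irf3*, the substrate of TBK1, had 48.4 to 60.1 CPM in WT-labelled libraries, 49.5 to 66.5 in FD and 40.5 to 49.6 in MLIV. *Irf7*, which is itself induced by interferon, had 12.8, 11.6 and 47.7 CPM in WT-labelled libraries, 25.1, 6.27 and 3.95 in FD and 43.0, 66.5 and 74.8 in MLIV (with 8 libraries 2.32 ± 0.85, edgeR adjusted p 0.416).

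Of 14 enzymes that clear or edit nucleic acid, the functional relatives of *Trex1*, *Adar* was the 1 called in MLIV against WT with 8 libraries (0.80 ± 0.18, edgeR adjusted p 0.0304), beside 1.7% of all genes. With 9 libraries 0 were called (2 at an edgeR unadjusted p below 0.05, beside 4.64% of all genes). *Adar*, which edits adenosines in double-stranded RNA, had 94.8, 137 and 170 CPM in WT-labelled libraries and 190, 217 and 206 in MLIV. The call was lost with scaling by library totals and without WT replicate 1 or any 1 MLIV library (edgeR adjusted p up to 0.625), and 4 of 14 were called without FD replicate 3. Over all genes, leaving out FD replicate 3 raised the calls from 296 to 1515. Of 11 genes of cell surface TLRs, 1 rose in MLIV against WT with 8 libraries, *Ly86* (MD-1, 0.78 ± 0.15, edgeR adjusted p 0.0123). It was lost without WT replicate 1, MLIV replicate 1 or MLIV replicate 2, and 3 of 11 were called without FD replicate 3.

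**Figure D5:**
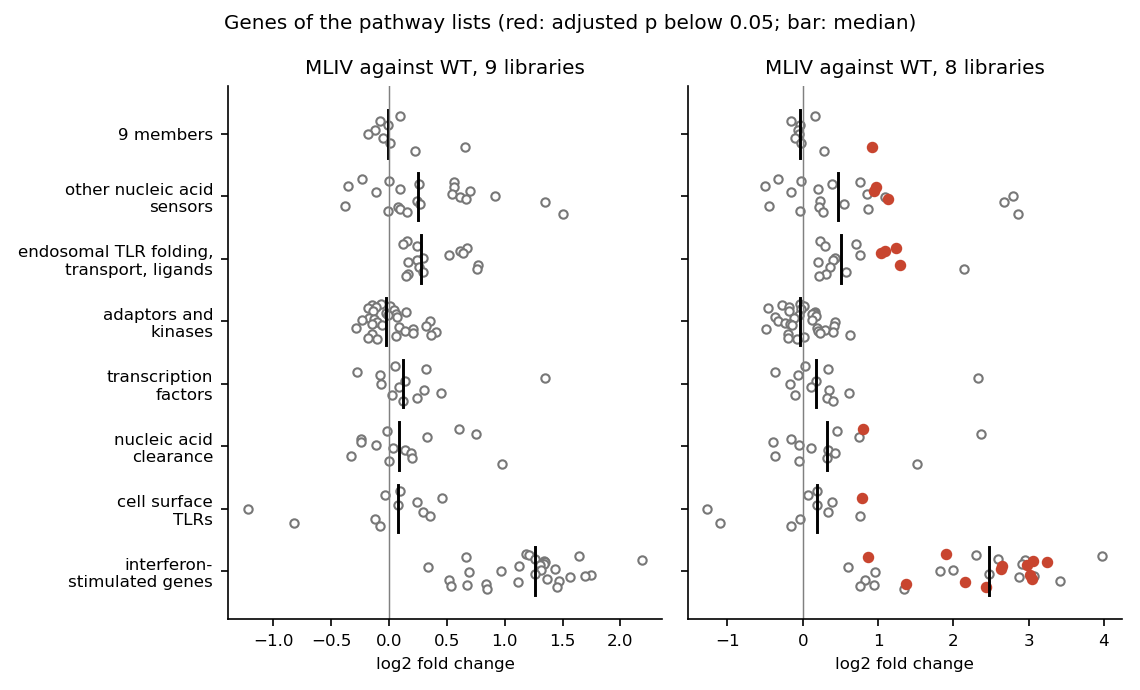
Log2 fold changes in MLIV against WT (horizontal axis) of the 9 members and of each list of related genes, with 9 libraries (left) and 8 (right). Points are genes, filled red where the adjusted p was below 0.05, and bars are list medians. The medians of the members, -0.01 and -0.03, lie near 0, and that of the interferon-stimulated genes is at 1.26 and 2.47.

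Downstream, transcripts of the interferons themselves were scarce. The 20 interferon genes summed to 147, 17 and 28 counts in WT-labelled libraries, 2, 128 and 0 in FD and 20, 4 and 8 in MLIV. *Ifnb1* had 6, 0 and 24 counts in WT-labelled libraries, 0, 14 and 0 in FD and 0, 2 and 2 in MLIV. A count of 0 allows up to 3 fragments in that library, from counting error only. Mates were counted singly, so each fragment can add a count per mate and the bound in counts is higher. Of 20 interferon genes 0 passed the filter with 9 libraries and 3 with 8, of which 0 were called by edgeR (0 at an unadjusted p below 0.05). The interferon-stimulated genes summed to 751, 916 and 2080 CPM in WT-labelled libraries, 1170, 760 and 902 in FD and 1925, 2406 and 2542 in MLIV. With 8 libraries 12 of 29 rose in MLIV against WT, beside 1.7% of all genes called in either direction. Among them were *Ifitm3* (2.64 ± 0.27, edgeR adjusted p 0.000186) and *Ifit1* (3.06 ± 0.38, edgeR adjusted p 0.000488). Over all genes, the calls with 8 libraries went from 296 to 1515 without FD replicate 3. With 9 libraries 0 of the 29 were called (9 at an edgeR unadjusted p below 0.05, beside 4.64% of all genes). The 8-library count fell to 2 without WT replicate 1 and rose to 20 without FD replicate 3. *Ifit3b* also rose (2.97 ± 0.44, edgeR adjusted p 0.00162), although its reads may be shared with the similar *Ifit3*. This list was chosen with the rise in these libraries known, so its count is no independent evidence of direction.

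Neutrophil markers were highest in MLIV, whereas the summed markers of the other myeloid cells overlapped between MLIV and WT-labelled libraries. The 10 neutrophil markers summed to 29.1 to 59.1 CPM in WT-labelled libraries, 1.41 to 6.07 in FD and 156 to 291 in MLIV. In MLIV against WT 0 of 10 were called in either fit. Against FD, 6 of 10 rose with 9 libraries and 7 with 8, beside 1.26% and 5.63% of all genes called in either direction. *Retnlg* and *Ltf* were at 0 in FD replicates 1 and 3, and none of the 10 was at 0 in MLIV or in WT-labelled libraries. WT replicate 3, where *Trex1* was high, had 57.1 CPM of them. The 8 monocyte markers summed to 41.6 to 115 CPM in WT-labelled libraries, 39.0 to 87.3 in FD and 109 to 129 in MLIV. The 12 dendritic cell markers, of cells known for high *Tlr7* and *Tlr9*, summed to 225 to 241, 191 to 206 and 212 to 233 CPM. *Ly6d* and *Klk1* were at 0 in most libraries, and FD replicate 3 also had 0 of *Cox6a2*, *Xcr1* and *Clec9a*. Other genes of the list therefore carried these sums. The 7 markers of border macrophages summed to 447.6 CPM in WT replicate 3, to 220 and 46.5 in WT replicates 1 and 2, and to between 169 and 220 in MLIV. The part of these cells in the level of *Trex1* was not tested, and in bulk RNA fewer cells of a type and less RNA per cell cannot be told apart.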

How the data were processed

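RNA from sorted microglia was sequenced in 9 libraries, 3 per group. The authors used a stranded kit. Alignment was by STAR 2.5.1 against mm10. Per the file headers, featureCounts 1.4.6-p3 gave the deposited table of whole-number counts in a run that covered 21 libraries, 9 of them analysed here. The command has no option for strand or read pairs, so mates were counted singly on either strand. The deposited counts are not normalized. The authors' tables of fold changes and p-values from DESeq2 were not used.

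Genes were kept by filterByExpr (15340 with 9 libraries, 17440 with 8), scaled by TMM (0.921 to 1.15) and tested with edgeR's robust quasi-likelihood model, 1 mean per group, in R 4.3.3 with edgeR 4.0.16 and limma 3.58.1. The SE is the log2 fold change over the root of the F statistic. Correlations used log2 CPM with a prior count of 2. The code was tested on simulated data. No pair of libraries was a duplicate, since the lowest chi-square per gene was 28.4. That pair was WT replicate 3 with MLIV replicate 2, while WT replicate 3 had 111 and 132 with WT replicates 1 and 2. By correlation of log2 CPM, however, WT replicates 2 and 3 shared the same highest value (0.964). RefSeq windows were matched by symbol.

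The members, lists and tests were chosen with earlier results of these data known. The genes named are the members, up to 4 genes with the smallest p of each list among those with an adjusted p below 0.05 in any comparison, the 3 genes most like the member of smallest p, and the targeted genes *Mcoln1* and *Gla*; 1 of them is not reported here. *Ctsl*, *Ctss*, *Irf3*, *Irf7*, *Ifnb1*, *Xist*, *Rnaset2a* and the neighbours of *Trex1* were added after their values were seen. Alternatives were DESeq2 1.42.0, RLE factors or library totals, no filter, a minimum of 10 counts per library, a fit of the 2 compared groups alone, a block for the replicate number, a log2 fold threshold of 1 and the removal of each library.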

Additional observations from a re-analysis of the deposited data

Results flagged for a closer look

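No member differed between MLIV and FD by the test of that difference (MLIV against FD, edgeR's quasi-likelihood test, adjusted p below 0.05). Genes around them did, so that the changes of both mutants from WT are unequal for these genes. The groups also differed in *Xist* and in breeding, as given above, and the part of these was not tested. With all 9 libraries, MLIV was above FD for *Rnaset2b* (3.49 on the log2 scale), *Xaf1* (3.09), a pro-apoptotic gene induced by interferon, and *Hmgb1* (1.06), a DNA-binding protein gene with many processed copies, so that its count is uncertain. In all 3 the MLIV and FD libraries did not overlap. Against WT with 9 libraries, FD and MLIV stood at -3.19 and 0.30 for *Rnaset2b* and at -2.25 and 0.84 for *Xaf1*. For *Hmgb1* they stood at -0.77 and 0.29. Of these values against WT, only that of *Rnaset2b* in FD was called. *Xaf1* lost its call without FD replicate 3 or any 1 MLIV library and with the replicate block (edgeR adjusted p up to 0.0752).

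Without WT replicate 3, sensors that were higher in MLIV than in FD were *Ifih1* (0.97), *Ddx58* (RIG-I, 0.79), *Eif2ak2* (0.71) and *Dhx58* (0.70), and 1 of the 22 was lower, the helicase gene *Dhx36* (-0.70, edgeR adjusted p 0.0427), named after its value was seen. Of the genes of endosomal receptor folding and ligand handling, *Rnaset2b* (3.49), *Ctsb* (1.51), *Pld3* (1.23) and *Hmgb1* (1.05) were higher. Of the adaptors, *Tank*, which binds TBK1, was higher by 0.84 and *Trim25*, a ubiquitin ligase for RIG-I, by 0.67. *Jun*, a subunit of AP-1, was lower (-0.62). Against WT with 8 libraries, FD and MLIV stood at 0.45 and -0.17 for *Jun* and at -0.42 and 0.42 for *Tank*. For *Hmgb1* they stood at -0.62 and 0.43, and none of these values was called.

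Of the clearance enzymes, *Adar* was higher (0.79). *Ly86* was higher by 0.62. The interferon-stimulated genes *Xaf1* (3.09), *Ifit1* (2.90), *Ifit3b* (2.73) and *Ifitm3* (2.11) were higher. For *Xaf1* the difference from WT in the 8-library fit was -1.74 in FD and 1.34 in MLIV, neither of them called. Of these genes, *Rnaset2b*, *Ctsb*, *Hmgb1*, *Pld3*, *Ifih1*, *Xaf1*, *Ifit1*, *Ifit3b* and *Ifitm3* were called in all 15 alternatives of the 8-library fit other than the log2 fold threshold of 1, under which single genes were not listed. The others lost the call without 1 or more libraries, at an adjusted p of up to 0.0536 for *Adar*, 0.0586 for *Ly86*, 0.0649 for *Ddx58*, 0.105 for *Trim25*, 0.106 for *Eif2ak2*, 0.152 for *Dhx58*, 0.203 for *Jun* and 0.204 for *Tank* over all alternatives in edgeR and DESeq2.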

How the results depend on the processing

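For MLIV against WT, the count of members called was 0 with 9 libraries and 0 to 1 when each library was left out (1 without WT replicate 3). With 8 libraries it was 1, 0 with library totals, 0 with a log2 fold threshold of 1, and 0 to 1 when each library was left out. For MLIV against FD with 8 libraries it was 0, but 1 with DESeq2, 1 with at least 10 counts in every library, and 0 to 1 when each library was left out (1 without FD replicate 3). For FD against WT it was 0 in all alternatives run. *Trex1* kept its direction in MLIV against WT in all alternatives, at 0.53 to 0.92 with 9 libraries and 0.72 to 0.98 with 8, where 9 of 15 kept the call (adjusted p 0.000184 to 0.319).

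Of 837 values of members under the alternatives, 69 changed sign, in 29 of 54 results, all with a fold change of at most 0.25 in size, and none was a called value. Scaling by library totals moved the median of all genes by -0.15 (MLIV with WT), -0.03 (FD with WT) and -0.13 (MLIV with FD) with 9 libraries and by -0.20, -0.09 and -0.12 with 8. With totals, the values that changed sign were, for MLIV against WT, *Tmem173* -0.14 and *Mavs* -0.050 with 9 libraries and *Mavs* -0.039 with 8. For FD against WT with 8 they were *Tlr7* -0.047, *Unc93b1* -0.027, *Tmem173* -0.016 and *Tbk1* -0.016, and for MLIV against FD *Tlr3* -0.091 with 9 and -0.091 with 8. *Tmem173* in MLIV against WT with 9 libraries was -0.026 with DESeq2, -0.026 with RLE factors, -0.041 with at least 10 counts and -0.0059 with only the 2 groups. *Tlr7* in FD against WT with 8 was -0.0038 with DESeq2, -0.0038 with RLE factors and -0.0094 with at least 10 counts. With no filter and 9 libraries, *Tbk1* in MLIV against WT was 0.0058 and *Unc93b1* in FD against WT 0.0030.

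Some values changed sign when a library was left out, and their lowest and highest values follow. For MLIV against WT with 9 libraries they were -0.10 to 0.017 for *Tlr9*, -0.051 to 0.061 for *Tmem173*, -0.039 to 0.047 for *Tbk1* and -0.020 to 0.20 for *Mavs*. For FD against WT with 9 libraries they were -0.36 to 0.018 for *Tlr3*, -0.39 to 0.013 for *Tlr7*, -0.060 to 0.056 for *Unc93b1*, -0.00081 to 0.19 for *Tmem173* and -0.070 to 0.33 for *Trex1*. For MLIV against FD with 9 libraries they were -0.14 to 0.24 for *Tlr3*, -0.18 to 0.21 for *Tlr7*, -0.18 to 0.014 for *Tmem173* and -0.15 to 0.025 for *Mavs*. For MLIV against WT with 8 libraries they were -0.26 to 0.19 for *Tlr3*, -0.37 to 0.36 for *Tlr7*, -0.069 to 0.048 for *Tmem173*, -0.10 to 0.056 for *Tbk1* and -0.0023 to 0.35 for *Mavs*. For FD against WT with 8 libraries they were -0.31 to 0.15 for *Tlr3*, -0.30 to 0.43 for *Tlr7*, -0.026 to 0.39 for *Mb21d1*, -0.034 to 0.18 for *Tmem173* and -0.0012 to 0.16 for *Tbk1*. For MLIV against FD with 8 libraries they were -0.12 to 0.24 for *Tlr3*, -0.17 to 0.21 for *Tlr7*, -0.16 to 0.012 for *Tmem173* and -0.14 to 0.039 for *Mavs*. The cause of these changes was not tested.

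The replicate numbers did not pair the libraries: same-numbered libraries correlated at -0.298 to 0.190 in their deviations from group means, over 0.1 in 1 of 9 pairs. Libraries of different number correlated at -0.312 to 0.443, over 0.1 in 6 of 18 pairs. The highest of these was WT replicate 1 with FD replicate 2, and what such pairs share was not tested. With the number as a replicate block no call on a member changed, *Trex1* was at 0.94 in MLIV against WT with 8 libraries, and *Tlr3* (0.0058), *Tlr7* (0.087), *Tlr9* (0.14) and *Tmem173* (0.066) changed sign there. Over all genes with 9 libraries, the counts called were 0 for MLIV against WT (14 with DESeq2), 52 for FD against WT (175 with DESeq2, 94 with no filter, 33 with only the 2 groups) and 194 for MLIV against FD (1501 with DESeq2, 548 with totals, 637 with no filter, 600 with at least 10 counts, 699 with only the 2 groups, 87 with the block). With 8 they were 296 (696 with DESeq2, 683 with no filter, 1164 with only the 2 groups, 471 with the block, 182 with the fold threshold), 54 (124, 208 and 31 with DESeq2, no filter and only the 2 groups) and 982 (1799 with DESeq2, 1793 with no filter, 440 with the fold threshold). Leaving out a library gave 0 to 296, 37 to 77 and 52 to 982 with 9 libraries, and 81 to 1515, 30 to 122 and 369 to 1885 with 8. For MLIV against WT with 8 libraries, the counts called with DESeq2, with no filter and with only the 2 groups were 6, 7 and 6 of the other sensors (3 as reported), 6, 5 and 8 of the endosomal list (4), and 19, 28 and 24 of the interferon-stimulated genes (12). With 2 or 3 libraries per group and p-values over all genes, changes of the size seen in most members could not be told from 0 at this spread.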
